A study of Mus musculus with 2 samples.

Results

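The cells described here were 305 melanocyte stem cells (McSCs) of the early-anagen library, out of 11010 barcodes in that library and 15337 in the series. They were chosen by their own transcripts. Barcodes were eligible if they held more than 10000 UMIs (unique molecular identifiers, 1 per captured transcript), less than 5% mitochondrial UMIs, at least 1 UMI of *Dct*, fewer than 3 UMIs of *Krt10* and *Krt14* together and no UMI of *Mki67* or *Top2a*. Of the 1523 eligible cells, the 20% with the largest share of UMIs from 6 genes (*Fxyd5*, *Tnfrsf12a*, *Nkain4*, *Prkg2*, *Mcc* and *Ecm1*, called rule genes below) were the members. They were compared with the 762 cells in the lower 50% by that share, called comparison cells, and the 456 cells between were called middle cells.

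The series asked how McSCs change their differentiation state as the hair cycle starts. GFP-positive, DAPI-excluding cells were sorted from dorsal skin of mice whose genotype was *Dct-rtTA; tetO-H2B-GFP*. In these mice doxycycline, given in chow for 4 days, turns on nuclear GFP in cells that use the *Dct* promoter, so both libraries held cells already expressing a melanocyte reporter. For the early-anagen library (labelled Activated McSC) mice aged 8 weeks were depilated and sampled 4 days later. For the bulb library (labelled Differentiated Mc) hair bulbs were dissected from anagen VI follicles of mice aged 5 weeks. The methods give both sexes for the study as a whole. In the early-anagen library Y-linked UMIs were in 1288 of the 1523 eligible cells and an *Xist* UMI in 1, so these cells hold next to no female cells by those transcripts. Cells of 4 mice were pooled into 1 library per condition, with version 3 chemistry for early anagen and version 2 for the bulb, so chemistry, age and depth cannot be told apart from condition. With 1 library per condition and cells that are not replicates of it, no test was made, and every interval below covers counting error only.

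Melanocytes make melanin in melanosomes. A structural fibril is laid down first, tyrosinase and its relatives then oxidize tyrosine, ion channels and transporters set the pH and ion content of the organelle, and RAB proteins and myosin carry it to the dendrites. MITF is the transcription factor that drives most of these genes, and McSCs in the hair follicle are known for holding them at low levels. Of the rule genes, *Tnfrsf12a* encodes the receptor of the cytokine TWEAK, *Fxyd5* a small regulator of the sodium pump that also affects cell adhesion, *Nkain4* a protein that interacts with the sodium pump, *Prkg2* a cyclic GMP-dependent kinase and *Ecm1* a secreted matrix protein.

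The members were chosen on these 6 genes, so their levels are a description. *Tnfrsf12a* (chr17:23675445-23677468, minus strand, GRCm38) stood at 751 CPM (UMIs of the gene per 1000000 UMIs) in members, 343 CPM in middle cells and 80.8 CPM in comparison cells. *Fxyd5* (chr7:31032722-31042481, minus strand) stood at 134, 63.2 and 21 CPM in the same order. *Tnfrsf12a* supplied 67.4% of the members' rule-gene UMIs, *Fxyd5* 11.9%, *Ecm1* 7.90%, *Prkg2* 5.92%, *Mcc* 3.96% and *Nkain4* 2.93%. In 244 of the 305 members *Tnfrsf12a* gave at least 0.5 of the rule-gene UMIs, and 95 members (31.1%) had no *Fxyd5* UMI at all. The label "*Fxyd5*-high" therefore held for only some of the cells, and they are called *Tnfrsf12a*- and *Fxyd5*-high cells, or members, below.

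Each rule gene was also measured in cells it had not helped to choose. The rule was set with earlier results of these data known. That the genes go together in the same cells is therefore a description and no independent support. With the other 5 genes choosing, *Nkain4* was at 23.3 CPM in the high cells and 6.82 CPM in the low cells, a log2 ratio of 1.77 (exact 95% interval 1.23 to 2.32). *Fxyd5* was at 100.7 against 36.2 CPM, a log2 ratio of 1.47 (1.24 to 1.71). *Tnfrsf12a* was at 395 against 222 CPM, a log2 ratio of 0.83 (0.72 to 0.94). *Ecm1*, *Prkg2* and *Mcc* had log2 ratios of 1.17, 1.11 and 0.69, all with intervals above 0. Members held fewer UMIs per cell than middle and comparison cells of the same library (median 15878 against 19329.5 and 21657).

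The boundary is a rank of that share. The 10 members nearest the boundary had 0.0752 to 0.0776% of their UMIs in the rule genes, and the 10 cells just outside had 0.0743 to 0.0751%. They are set apart by that rank alone. Outside the melanocytes, *Tnfrsf12a* was detected in 96.1% of 51 epidermal reference barcodes, which held at least 100 *Krt10* and *Krt14* UMIs together and under 0.0911% *Dct* UMIs, *Mcc* in 64.7%, *Ecm1* in 56.9%, *Fxyd5* in 15.7% and *Nkain4* and *Prkg2* in 1.96% each, without thinning and at a median of 36236 UMIs. *Lgals3*, a galectin named with the label but not used by the rule, was at 4918 CPM in members, 3628 CPM in middle cells, 2374 CPM in comparison cells and 906 CPM in the bulb.

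In total 5736 genes had at least 20 CPM in members or comparison cells, rule genes left out. Of these, 281 (4.90%) were at least 1.5-fold higher in members and 617 (10.8%) at least 1.5-fold lower, which is what "higher" and "lower" mean below. With edgeR's TMM scaling, which moved every log2 ratio up by about 0.12, the counts were 446 higher and 391 lower, so the balance of directions rests on the scaling. The median log2 ratio of all genes was -0.08. Levels below are CPM of cells thinned at random to 10000 UMIs each, and ratios are members over comparison cells.

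Pigmentation genes were lower in the members across nearly the whole list. Of 17 genes, none used by the rule except that eligibility needed 1 *Dct* UMI, 14 were lower, 0 were higher and the median log2 ratio was -1.22. This compares with 10.8% lower and a median of -0.08 over all genes. The summed level was 20880 CPM in members, 26386 CPM in middle cells, 35907 CPM in comparison cells and 81244 CPM in the bulb library. All 17 genes stood in the order members, middle cells, comparison cells from low to high, and 15 of the 17 were higher still in the bulb.

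**Figure D1:**
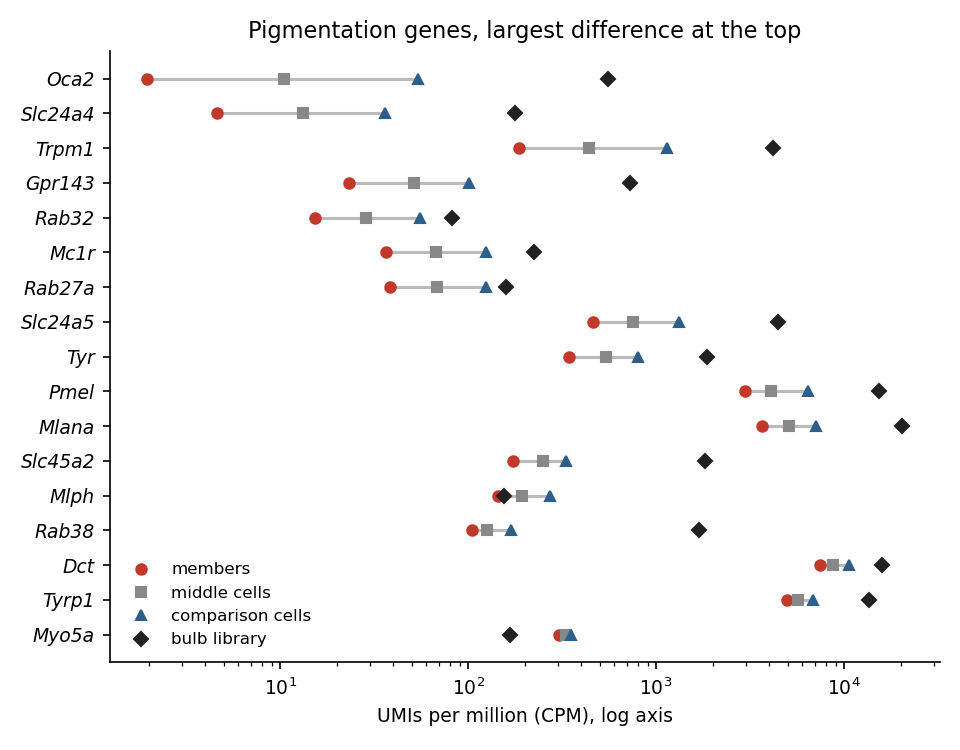
Level of each pigmentation gene in CPM (log axis) in members, middle cells, comparison cells and the bulb library, with the largest difference between members and comparison cells at the top and grey lines joining those 2 groups. *Oca2* runs from 1.97 CPM in members to 54.3 CPM in comparison cells and 554 CPM in the bulb, while *Myo5a* and *Mlph* are the 2 genes lower in the bulb than in comparison cells.

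The channels and transporters of the melanosome had the lowest median of the pigmentation sublists (-1.51 over 7 genes, 5 of them lower, against 10.8% of all genes). *Oca2*, which encodes a melanosomal chloride channel, was at 1.97 CPM in members, 10.5 CPM in middle cells, 54.3 CPM in comparison cells and 554 CPM in the bulb, a log2 ratio of -4.79 (-6.24 to -3.65) that rests on 6 UMIs in members. After thinning, 5 of 305 members (1.64%, Clopper-Pearson 95% interval 0.53 to 3.78%) had an *Oca2* UMI, against 27 of 456 middle cells (5.92%) and 170 of 762 comparison cells (22.3%). Without thinning the shares were 1.97, 8.11 and 29.9%, and 0 of 51 epidermal reference barcodes had an *Oca2* UMI, which allows a share of up to 6.98%. *Trpm1*, a cation channel gene and MITF target, was at 187 CPM in members and 1138 CPM in comparison cells (log2 ratio -2.61, -2.73 to -2.48). The exchanger genes *Slc24a4* and *Slc24a5* had log2 ratios of -2.97 and -1.51, and the transporter gene *Slc45a2* -0.94. The copper transporter genes *Atp7a* and *Slc31a1* of the same list lay within 1.5-fold, at -0.18 and -0.25.

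All 3 matrix genes were lower, and 1 of the 3 enzyme genes, against 10.8% of all genes. *Pmel*, which forms the fibril, was at 2953 CPM in members and 6429 CPM in comparison cells (log2 ratio -1.12). *Mlana* was at 3668 and 7101 CPM (-0.95), and *Gpr143*, a melanosomal receptor, at 23.3 and 101.6 CPM (-2.13). Among the enzymes *Tyr*, tyrosinase, was at 343 CPM in members and 797 CPM in comparison cells (-1.22, -1.31 to -1.12). *Dct* and *Tyrp1*, the other 2 enzymes, were at 7445 and 4972 CPM in members and lay within 1.5-fold of comparison cells, at -0.52 and -0.46. *Dct* and *Tyrp1* transcripts were thus abundant in members while *Oca2* was nearly absent, although the reporter sort and the eligibility limit both favoured cells with *Dct*. Of the transport genes *Rab32*, *Rab27a*, *Mlph* and *Rab38* were lower (-1.85, -1.70, -0.92 and -0.69) and *Myo5a*, the myosin that carries melanosomes, was not (-0.21). *Mc1r*, the receptor for the pigmenting hormone, was at 36.4 and 125 CPM (-1.78).

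The starts of these genes are shown because the genes were low together, with the hexamer CATGTG, the core of the site at which MITF is known to bind, in capitals (CACATG on the opposite strand). The windows are the 250 bases before the RefSeq start, 5′ to 3′ on the gene's strand, in GRCm38.p6. RefSeq entries were matched for 12 of the 17 genes, with 14 windows. Of these windows 7 held the hexamer on either strand, against 4025 of 32851 windows of all genes (12.25%). By gene, 7 of the 12 held it in at least 1 window, against 3742 of 27025 genes (13.85%). *Oca2*, *Trpm1*, *Tyr* and *Dct* are printed from the 7 that hold it, as the 2 channels with large differences, an enzyme that was lower and an enzyme that was not. A match is a description of letters and not a bound site.
Oca2 (chr7:56239509-56239758, plus strand): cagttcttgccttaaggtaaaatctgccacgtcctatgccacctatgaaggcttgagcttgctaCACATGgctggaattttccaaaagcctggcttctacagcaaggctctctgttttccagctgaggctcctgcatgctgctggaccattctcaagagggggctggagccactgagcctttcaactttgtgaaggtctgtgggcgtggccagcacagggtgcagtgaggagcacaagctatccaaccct
Trpm1 (chr7:64153585-64153834, plus strand): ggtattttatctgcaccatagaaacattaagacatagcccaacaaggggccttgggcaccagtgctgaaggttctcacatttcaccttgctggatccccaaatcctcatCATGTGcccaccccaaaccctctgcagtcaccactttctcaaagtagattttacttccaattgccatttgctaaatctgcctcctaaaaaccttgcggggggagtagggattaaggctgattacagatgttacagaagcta
Tyr (chr7:87493513-87493762, minus strand): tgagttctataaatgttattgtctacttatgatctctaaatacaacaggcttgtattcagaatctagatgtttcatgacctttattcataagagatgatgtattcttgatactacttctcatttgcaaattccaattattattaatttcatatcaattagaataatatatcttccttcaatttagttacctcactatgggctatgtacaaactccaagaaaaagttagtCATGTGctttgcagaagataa
Dct (chr14:118052247-118052496, minus strand): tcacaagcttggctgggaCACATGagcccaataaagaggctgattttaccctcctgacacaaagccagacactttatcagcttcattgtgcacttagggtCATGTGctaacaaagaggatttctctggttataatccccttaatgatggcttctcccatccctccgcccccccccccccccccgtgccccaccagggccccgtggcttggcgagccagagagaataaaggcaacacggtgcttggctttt
It was also in a window of *Mc1r*, *Slc24a5* and *Tyrp1*. It was not in the second window of *Trpm1* (chr7:64185209-64185458), nor in those of *Slc24a4*, *Rab27a*, *Rab32*, *Mlph* and *Myo5a*. Genes with large and small differences thus stood on both sides of this hexamer. A related hexamer, CACGTG, is in the windows of *Slc24a4* and *Mlph* and in the second windows of *Trpm1* and *Rab27a*. Its share over all genes was not counted. A window without CATGTG may therefore hold another form of the site.

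Per cell, pigmentation UMIs ran from 36 to 508 of 10000 in members, with a median of 204. Middle cells ran from 25 to 645 with a median of 257, and comparison cells from 1 to 775 with a median of 348.5. The ranges overlapped broadly. The comparison cell at 1 had a rule-gene share of 0, and whether it is a melanocyte was not tested. Another comparison cell, at 4, is the cornified barcode described below. Among the 20% of eligible cells with the fewest pigmentation UMIs, 125 were members. This was 41.0% of members (Clopper-Pearson 35.4 to 46.7%), against 25.2% of middle cells and 8.53% of comparison cells. The members were the least pigmented of the 3 groups by their median, but most of them were not among the least pigmented cells.

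**Figure D2:**
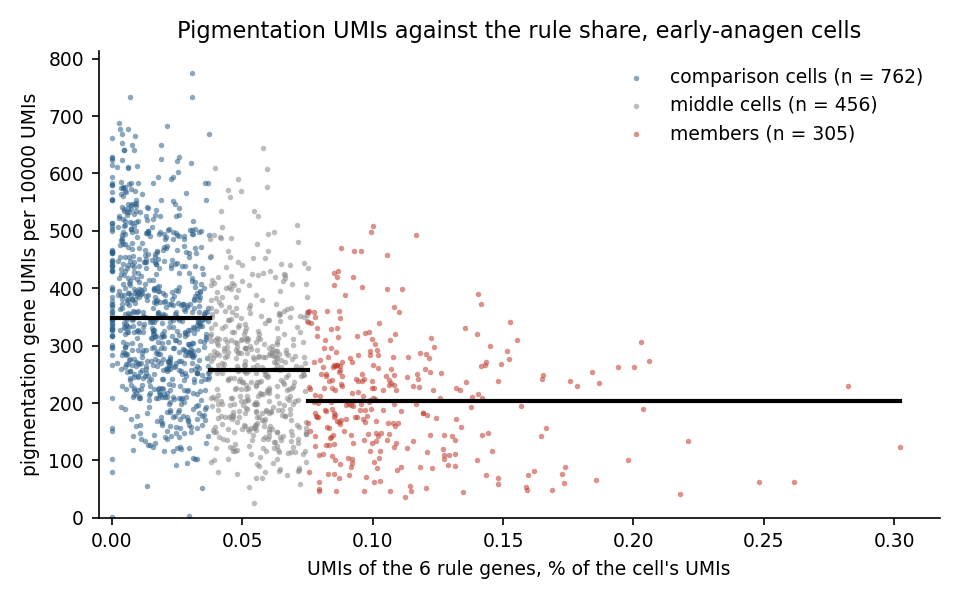
Each point is 1 of 1523 eligible early-anagen cells, with the share of its UMIs in the 6 rule genes (x axis, %) and its pigmentation gene UMIs per 10000 (y axis), and black bars are group medians. The medians step down from 348.5 to 257 to 204, and each group spreads widely around its median.

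Of the lineage transcription factor list, 18 genes had 20 CPM, 7 were lower and 0 higher (median log2 ratio -0.46), against 10.8% lower, 4.90% higher and a median of -0.08 over all genes. The 7 include *Id1*, *Id2* and *Id3*, counted again in the TGF-beta and BMP list below, and *Lef1*, counted again among WNT feedback genes. *Mitf* was at 207 CPM in members, 324 CPM in middle cells and 623 CPM in comparison cells, a log2 ratio of -1.59 (-1.71 to -1.47), and 330 CPM in the bulb. It was thus lower in members than in the bulb, whose pigmentation UMIs were the highest. Without *Tnfrsf12a* in the rule *Mitf* was at 343 CPM in the high cells and 534 CPM in the low cells (-0.64), and no longer below the bulb. *Irf4*, which regulates *Tyr* with MITF, *Lef1*, a WNT-pathway factor, and *Snai2* were lower at -1.08, -1.09 and -1.15. The neural-crest lineage factors *Sox10* (118 and 153 CPM, -0.38), *Pax3* (345 and 442 CPM, -0.36) and *Foxd3* (116 and 125 CPM, -0.11) lay within 1.5-fold, as did *Kit* (425 and 543 CPM, -0.35), the receptor that melanocytes need to survive and migrate.

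The inhibitors of DNA binding, which hold back basic helix-loop-helix factors and are known targets of BMP signalling, included 3 of the largest differences. *Id3* was at 57.7 CPM in members, 130.0 CPM in middle cells, 490 CPM in comparison cells and 1570 CPM in the bulb (log2 ratio -3.08, -3.31 to -2.87). *Id2* was at 43.0, 93.4, 346 and 1674 CPM (-3.01, -3.27 to -2.76), and *Id1* at 1.31, 3.73, 42.3 and 151 CPM (-5.01, -6.89 to -3.64), on 4 UMIs in members. *Id1* was detected in 4 members (1.31%), 13 middle cells (2.85%) and 116 comparison cells (15.2%). Without thinning the shares were 4.92, 5.04 and 23.9%, with no step from members to middle cells. The size of the *Id1* difference is uncertain: its log2 ratio was -1.67 (-3.19 to -0.45) in the lower 50% of cells by UMIs. The sizes also depend on the rule: without *Tnfrsf12a* in it, *Id3*, *Id2* and *Id1* had log2 ratios of -1.61, -2.20 and -2.58. Of the TGF-beta and BMP list 8 genes had 20 CPM and 5 were lower (10.8% over all genes), 4 of them the *Id* genes: *Id1* to *Id4* and *Smad7*, an inhibitory SMAD (23.0 and 48.4 CPM). The cytokine gene *Tgfb1* lay within 1.5-fold (0.52), and the receptor gene *Bmpr1a* was at 57.4 and 39.1 CPM (0.55).

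**Figure D3:**
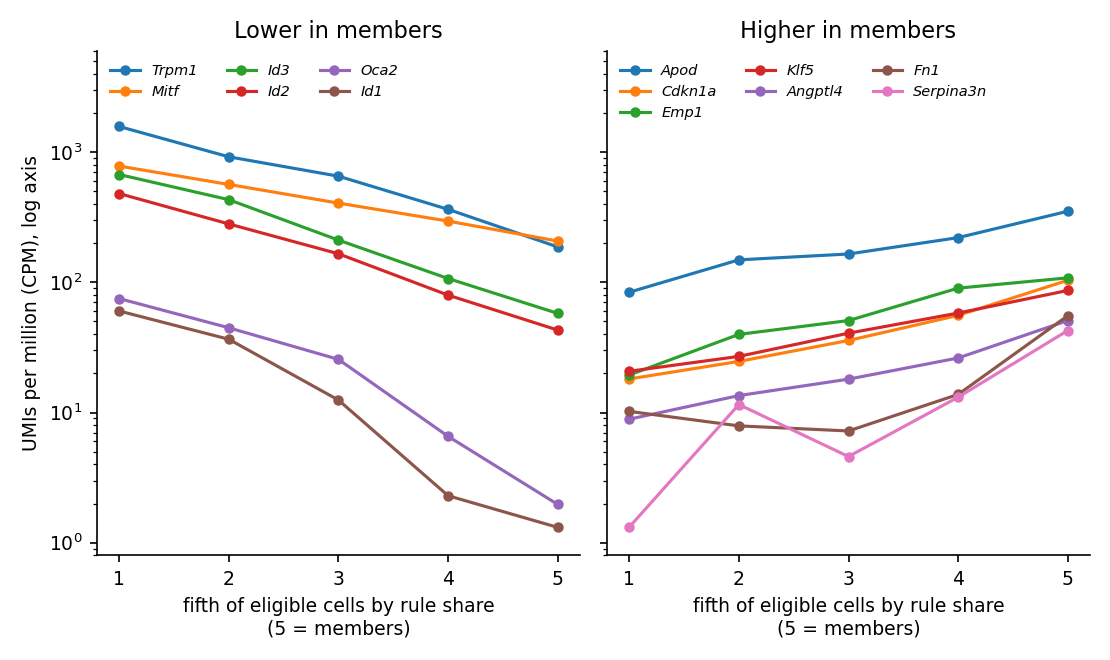
Level in CPM (log axis) of named genes in 5 equal groups of eligible cells ordered by their rule-gene share, with the members as the last group. *Mitf*, *Id1*, *Id2*, *Id3*, *Trpm1* and *Oca2* decline at each step, and *Fn1* and *Serpina3n* are high mainly in the last group. Several of these genes were named for large ratios between the end groups, which favours such steps.

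The differences were graded along the rule-gene share. In 5 groups of equal size, from the lowest share to the highest, *Mitf* was at 781, 564, 406, 295 and 207 CPM. *Oca2* was at 75, 44.7, 25.6, 6.56 and 1.97 CPM, and *Id3* at 672, 431, 211, 107 and 57.7 CPM. In the other direction *Cdkn1a* was at 18.1, 24.7, 35.7, 55.7 and 103.6 CPM. *Fn1* did not follow a grade, with 10.2, 7.89, 7.21, 13.8 and 55.4 CPM. Median depth fell over the same groups from 22326 to 15878 UMIs per cell, and was equalized by thinning.

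The 15 genes with the largest ratios in the high direction were *Fn1*, *Serpina3n*, *Cdkn1a*, *Fxyd3*, *Angptl4*, *Gdnf*, *Gfod1*, *Abl2*, *Arhgdib*, *Fads3*, *Emp1*, *Klf5*, *Trim47*, *C4b* and *Gbp2*. All 15 had middle cells between the other 2 groups, and 13 of them were under 10 CPM in the bulb. Choosing genes by extreme ratios between the end groups favours such a middle position, so it shows no grade. Some reached 20 CPM in members but not in comparison cells, among them *Fxyd3* (22.3 and 4.99 CPM) and *Trim47* (30.8 and 9.45 CPM). *Cdkn1a*, which encodes the cell cycle inhibitor p21, was at 103.6 CPM in members, 51.5 CPM in middle cells and 22.8 CPM in comparison cells (log2 ratio 2.18, 1.91 to 2.46), and 195 CPM in the bulb. It was detected in 150 of 305 members and 116 of 762 comparison cells. *Emp1*, a membrane protein gene, was at 108 and 32.8 CPM (1.72), *Klf5*, an epithelial transcription factor gene, at 86.6 and 26.5 CPM (1.71) and *Angptl4*, a secreted regulator of lipid metabolism, at 50.8 and 11.4 CPM (2.15). *Gdnf*, a growth factor of nerve cells, was at 24.3 and 5.64 CPM (2.10). *C4b*, a complement component, was at 86.9 and 26.9 CPM (1.69), and was detected in 133 members. Several of these genes are also epidermal: *Klf5*, *Emp1*, *Cdkn1a* and *Fxyd3* were at 484, 347, 300 and 1575 CPM in the epidermal reference barcodes, whose part in the members' values was not tested, while *Fn1*, *Serpina3n* and *C4b* were at 1.96, 3.92 and 1.96 CPM there.

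*Fn1* and *Serpina3n* were found in few members. *Fn1*, fibronectin, was at 55.4 CPM in members and 7.35 CPM in comparison cells (2.91, 2.47 to 3.38), but only 33 members had a UMI of it and 1 cell held 19.5% of its member UMIs. Among cells under 3% mitochondrial UMIs its log2 ratio was 0.21 (-1.47 to 1.70) on 19 UMIs, and the call was lost. *Serpina3n*, a secreted protease inhibitor, was at 42.6 and 6.04 CPM (2.82), in 48 members. Both were detected in 20 members, and 21 of the 33 *Fn1*-positive members also had a *C4b* UMI. The *Fn1*-positive members had 982 CPM of *Apod*, a lipid-binding secreted protein, against 275 CPM in the other 272, with similar median depth (16192 and 15855.5 UMIs). Their median of pigmentation UMIs was 210 per 10000, against 202.5 in the other members. *Fxyd3*, another sodium pump regulator, rests on 68 member UMIs of which 25% were in 1 cell, and 47.4% of its comparison UMIs were also in 1 cell.

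Of 16 matrix and secreted genes with 20 CPM, 7 were higher and 0 lower (median 0.49), against 4.90% higher and 10.8% lower over all genes: *Fn1*, *Timp1* and *Timp3* (protease inhibitors), *Lgals3* (a marker of the label itself), *Col4a1*, *Col12a1* and *Serpine2*. *Timp1* was at 60.3 and 19.9 CPM (1.60) and *Col12a1* at 370 and 216 CPM (0.78). Of 22 actin, annexin and S100 genes 6 were higher and 1 lower (median 0.29). *Vim*, the filament protein vimentin, was at 7504 and 4200 CPM (0.84, 0.81 to 0.86), against 50.2 CPM in the bulb. *Anxa1* was at 1001 and 452 CPM (1.15), *S100a10* at 827 and 447 CPM (0.89) and *Tagln2* at 702 and 371 CPM (0.92), while *S100a1* was lower (-0.65).

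The study described genes shared by telogen and early-anagen stem cells but lower in bulb melanocytes. Its text names *Col12a1* and *Cdh1* among the stem-cell-enriched genes. Of 6 genes listed here as such, *Col12a1* and *Cd9* were higher in members, *Hspa1a* was lower and 3 lay within 1.5-fold (median 0.18). Over all genes 4.90% were higher and 10.8% lower, with a median of -0.08. *Cd9*, a tetraspanin, was at 1034 CPM in members, 768 CPM in middle cells, 623 CPM in comparison cells and 13.3 CPM in the bulb. The study described such genes partly from libraries of this series and partly from telogen cells not analysed here. The list is therefore not independent evidence of a direction. *Cdh1*, E-cadherin, was at 105 and 114 CPM (-0.12, -0.31 to 0.06).

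The signalling lists are read against 4.90% higher and 10.8% lower over all genes. Of 6 TWEAK and NF-kB genes besides *Tnfrsf12a*, 1 was higher, *Nfkbia*, the inhibitor and target of NF-kB (262 and 151 CPM, 0.79), and *Rela* and *Nfkb1* lay at 0.56 and 0.42. Of 9 WNT feedback genes 0 were higher and 2 lower, *Nkd1* (18.4 and 45.3 CPM, -1.30) and *Lef1*, while *Axin2* was at 36.7 and 48.6 CPM (-0.40). Of 5 YAP and TEAD targets *Ccn1*, *Ccn2* and *Amotl2* were lower (-0.88, -2.33 and -0.64). Of 3 sodium pump genes outside the rule *Fxyd3* was higher and 0 were lower. Of 10 niche receptor genes *Tgfbr1*, *Notch1* and *Igf1r* were higher (0.61, 0.60 and 0.65) and *Ednrb* and *Met* lower (-0.80 and -0.65).

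The immediate early genes, which also respond to tissue dissociation, split, and these and the heat shock genes are read against the same 4.90% higher and 10.8% lower. Of 12, *Atf3* (481 and 226 CPM, 1.09), *Fosb* (0.86) and *Jund* (0.63) were higher, and *Fos* (331 and 611 CPM, -0.88), *Jun* (-0.71), *Egr1*, *Btg2* and *Dusp1* were lower. Of 12 heat shock genes *Hspa1a*, *Hspa1b* and *Hsph1* were lower (-1.03, -1.09 and -0.72) and 0 were higher. Median mitochondrial share was 3.12% in members and 3.34% in comparison cells, and median ribosomal share 26.7 and 24.8%. Among cells under 3% mitochondrial UMIs the pigmentation median was -0.99, *Mitf* -1.37 and *Id3* -2.89. The part of the ribosomal share was not tested.

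**Figure D4:**
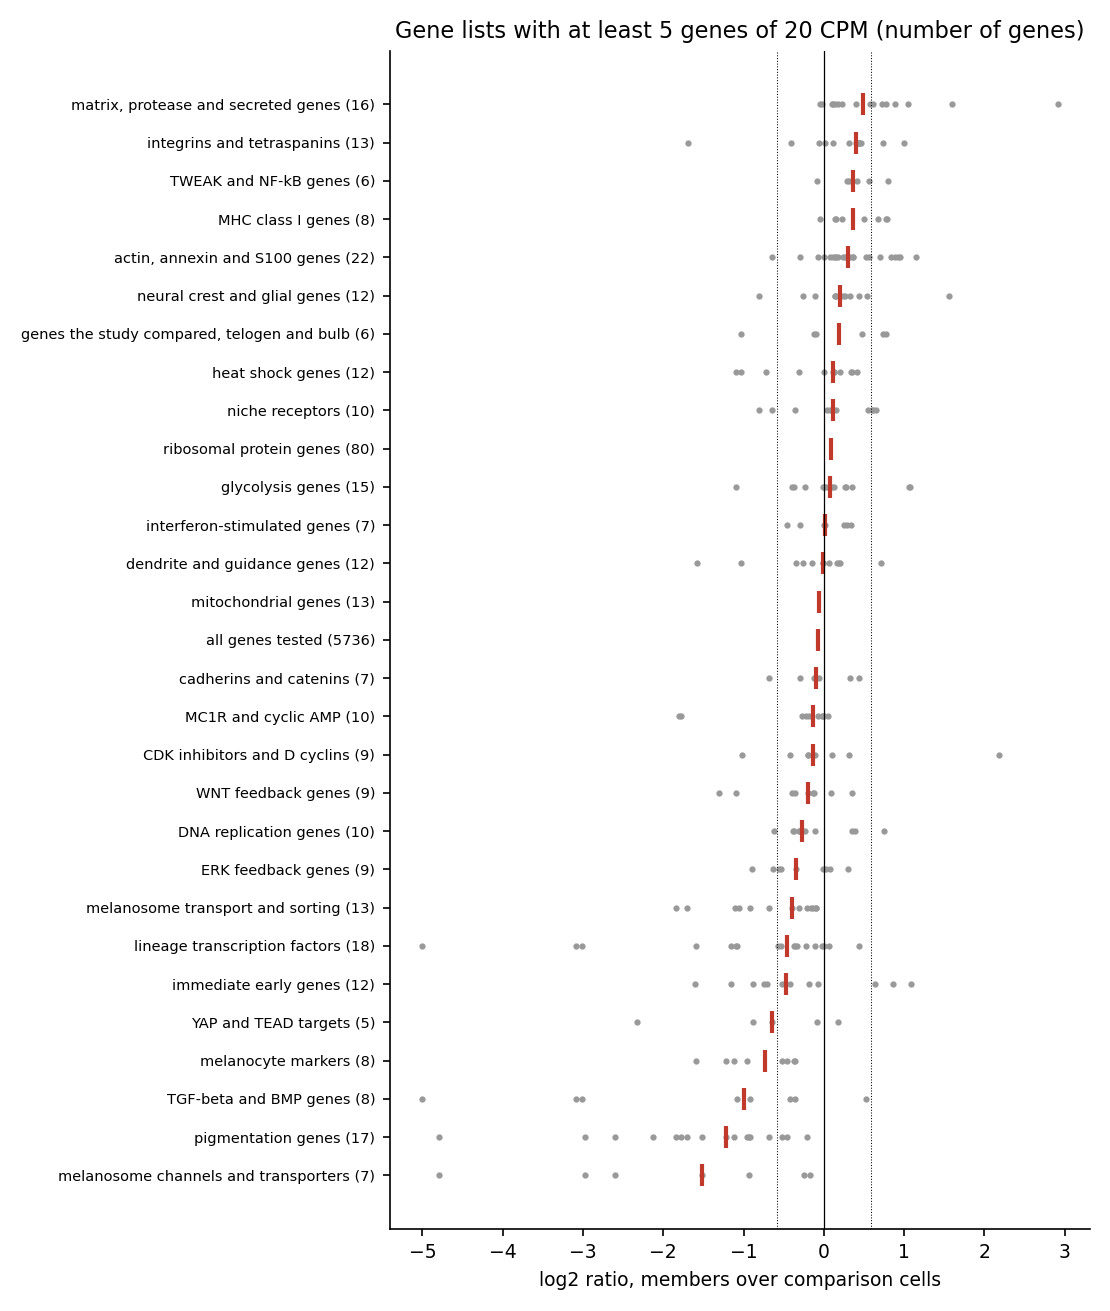
Log2 ratio, members over comparison cells, of each gene (grey) of the lists with at least 5 genes of 20 CPM, with the list median in red (the median alone for ribosomal, mitochondrial and all genes), the number of genes in brackets and dotted lines at 1.5-fold. Medians run from -1.51 for melanosome channels and transporters to 0.49 for matrix, protease and secreted genes, with all genes at -0.08.

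Markers of other cell types were summed as lists. Summed over 15 keratinocyte markers the level was 70.5 CPM in members, 64.3 CPM in middle cells and 96.7 CPM in comparison cells. Its most abundant gene was *Lgals7* (36.1 and 37.4 CPM), and *Krt5* was at 2.62 CPM in members, against 4261 CPM in epidermal reference barcodes. *Krt10* and *Krt14* are in the list too, but the limits that set the eligible and the reference cells fixed their levels. Fibroblast, endothelial and Merkel cell lists were at 0 for all of their 8, 7 and 5 genes in members, and a count of 0 allows up to 1.21 CPM per gene (exact Poisson). The 9 immune markers summed to 55.7, 81.8 and 32.3 CPM, led by *H2-Ab1* (27.2 and 13.6 CPM, 26.5% of the member UMIs in 1 cell), with 5 of them at 0 in members. Of the 8 Schwann markers 5 were at 0 in members, and the 7 reported here summed to 51.8, 46.5 and 37.9 CPM, led by *Cdh19* (50.5 and 37.1 CPM, 0.44, 0.15 to 0.73). The part of immune and Schwann markers, both at a higher summed level in members than in comparison cells, was not tested. Melanocyte markers were all present, among them *Sox10*, *Kit*, *Dct* and *Mlana*.

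Of the 15 genes with the largest ratios in the low direction, 7 reflected a single comparison barcode. *Flg*, *Casp14*, *Crct1*, *Krtdap*, *Sprr1a*, *Lor* and *Sbsn*, genes of the cornified epidermis, had between 87.7 and 100% of their comparison UMIs in 1 barcode. It held 556 *Flg*, 936 *Krtdap*, 1 *Dct* and 9 pigmentation UMIs of 20359, and 0 *Krt10* and 0 *Krt14* UMIs, so the eligibility rule let it through. *Flg* and *Casp14* had 0 UMIs in members, and after thinning all of their comparison UMIs were in that barcode. Without it the pigmentation median was again -1.22 and 612 genes were lower. The other 8 genes were *Id1*, *Oca2*, *Apold1*, *Nap1l5*, *Id3*, *Id2*, *Slc24a4* and *Proser2*. *Proser2* was at 4.26 CPM in members, 28.1 CPM in comparison cells and 258 CPM in the bulb (-2.72), and *Apold1*, a gene of vascular and stress responses, at 1.31, 24.1 and 61.0 CPM (-4.20). With that barcode left out *Trpm1*, *Cthrc1*, *Ccn2*, *Nhs*, *Gpr143*, *B3galt5* and *S1pr3* took the 7 places. *Cthrc1*, a secreted protein of WNT signalling, was at 39.0 CPM in members, 201.2 CPM in comparison cells and 792 CPM in the bulb (-2.37).

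Among the members, the 210 members with a *Fxyd5* UMI had a median of 188.5 pigmentation UMIs per 10000, and the 95 without had 246, with median depths of 16071 and 15415 UMIs. *Pmel* was at 2362 CPM in the first and 4259 CPM in the second. *Mitf* was at 217 and 185 CPM. Split at the median of pigmentation UMIs, the rule genes went both ways: *Fxyd5* was at 178 CPM in the lower 153 members and 89.5 CPM in the upper 152, *Prkg2* at 91.5 and 38.8 CPM, *Nkain4* at 46.4 and 17.1 CPM and *Ecm1* at 96.7 and 81.6 CPM, while *Tnfrsf12a* was at 683 and 820 CPM and *Mcc* at 28.8 and 53.9 CPM. Since the rule sums these genes and sets only a lower limit on their share, a member low in one gene can pass through another. *Pax3*, which the split did not use, was at 367 and 323 CPM.

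The pattern was looked for in cells that the choice of members had not used, with the same 6 genes, 20% and 50%. Among 462 early-anagen barcodes of 5000 to 10000 UMIs, 92 were high and 231 low, with median depths of 7402.5 and 7212 UMIs. Of 16 pigmentation genes with 20 CPM 15 were at least 1.5-fold lower in the high barcodes (median -1.15), against 20.8% of all genes there. *Mitf* was at 239 and 500 CPM (-1.07, -1.37 to -0.77), and *Trpm1* at 78.3 and 536 CPM (-2.78). Among the 1262 cells with a *Mki67* or *Top2a* UMI, 252 high and 631 low, 13 of 16 were lower (median -0.82), against 8.32% of all genes, and *Id3* was at 65.1 and 539 CPM (-3.05). These cells came from the same library and the same pooled mice.

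In the bulb library the same split left few genes of any kind lower. Among its 3643 cells without *Mki67* or *Top2a*, 729 were high and 1822 low by the same shares. Of 17 pigmentation genes 0 were lower (median -0.03, from -0.16 to 0.05). Over all genes 6 of 4957 (0.121%) were lower, with a median of 0.001. The pigmentation count is thus near that of all genes and is no result about pigmentation genes. *Tnfrsf12a* was at 79.3 and 11.7 CPM there, and of the rule genes *Ecm1* was detected in 62.0%, *Tnfrsf12a* in 34.7%, *Mcc* in 23.2% and *Fxyd5* in 0.321% of bulb melanocytes, so the rule ranked those cells on other genes than in early anagen. *Mitf* was at 348 and 339 CPM (0.04, -0.06 to 0.13). *Lgals3*, at 1230 and 769 CPM (0.68), and *Cdkn1a*, at 245 and 178 CPM (0.46), kept the direction they had in early anagen. The difference between the libraries was not tested.

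**Figure D5:**
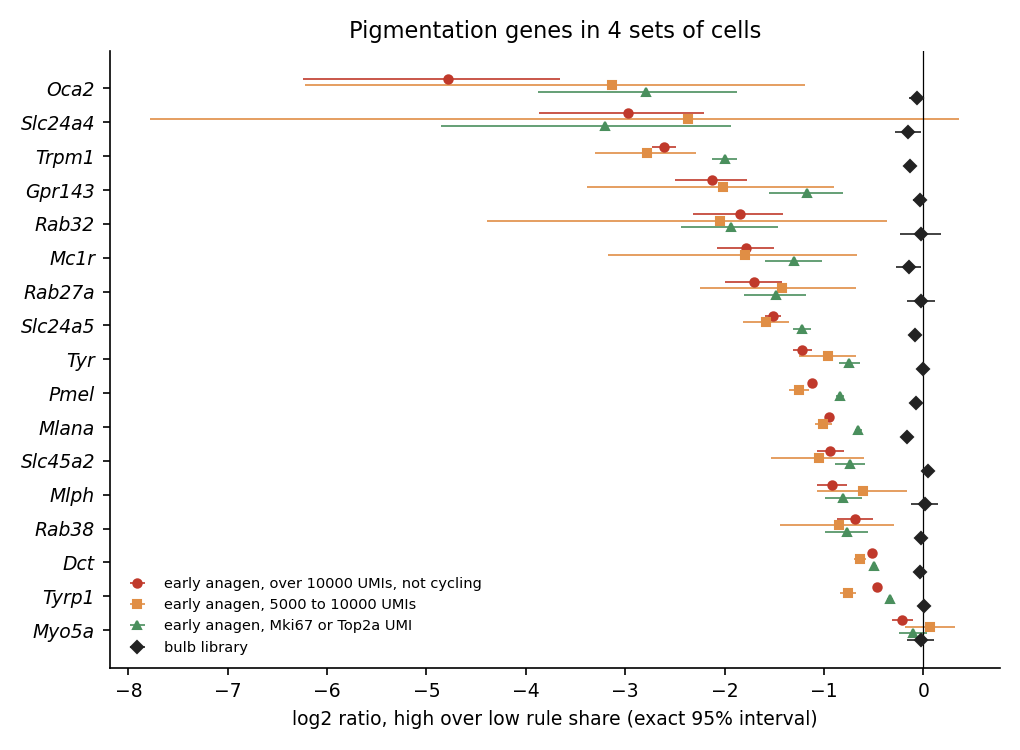
Log2 ratio of each pigmentation gene between cells high and low in rule-gene share, with exact 95% counting intervals, in the main early-anagen cells, in early-anagen barcodes of 5000 to 10000 UMIs, in early-anagen cells with a *Mki67* or *Top2a* UMI and in the bulb library. Nearly all early-anagen points lie left of 0, the exception being *Myo5a* at 0.07 in the shallow barcodes, and bulb points lie between -0.16 and 0.05.

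Membership changed with the rule genes. Without *Tnfrsf12a* in the rule, 158 of the 305 high cells (51.8%) were the same, and the pigmentation median was -1.09. *Oca2* was then at 0.656 and 57.5 CPM, and *Mitf* at 343 and 534 CPM (-0.64), against -1.59 with all 6 genes. With *Fxyd5* alone 133 (43.6%) were the same and the median was -0.89, and with *Tnfrsf12a* alone 237 (77.7%) were the same and it was -0.86. Without *Tnfrsf12a* in the rule the *Id* genes were also closer between the groups. *Id3* was at -1.61 (-1.76 to -1.46), *Id2* at -2.20 and *Id1* at -2.58, against -3.08, -3.01 and -5.01 with all 6 genes. *Mitf* and the *Id* genes thus differed less without *Tnfrsf12a* in the rule, while *Oca2* was low with either rule.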

How the data were processed

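For 2 libraries, UMI counts were deposited by the authors as whole numbers for each gene and barcode, not normalized, from Cell Ranger 6.0.1 on mm10 per the submitters' processing notes. Barcodes per library were 11010 (116800173 UMIs) and 4327 (58161397 UMIs). The telogen library was not analysed here, and some listed genes are not reported here. Members and gene lists were chosen with earlier results of these data known.

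Cells were thinned at random to 10000 UMIs (5000 for shallower barcodes and the bulb comparison), UMIs were summed per group and scaled to CPM, and bulb levels used all UMIs. Intervals are exact: Poisson ratios for log2 ratios and Clopper-Pearson for shares, both at 95%. A gene was compared where members or comparison cells reached 20 CPM, and 1.5-fold was the limit. Named genes were those of 40 lists and the 15 largest ratios in each direction, without rule, mitochondrial, ribosomal and model-number genes. No doublet caller was run: the 5% of cells with most UMIs were removed as an alternative. Of eligible cells 1 had an *Xist* UMI, so a split by sex could not be run. The libraries shared 1 barcode sequence. The scripts were tested on simulated data. Python 3.11.15, scipy 1.17.1, edgeR 4.0.16 (R 4.3.3) and GENCODE M21 positions were used.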

Additional observations from a re-analysis of the deposited data

Results flagged for a closer look

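*Id1* and *Slc45a2* were singled out because their ratios between cells high and low in rule-gene share had opposite signs in the 2 libraries, with both counting intervals off 0. For *Id1* the log2 ratio was -5.01 in early anagen and 0.28 in the bulb (0.14 to 0.42, 173 against 143 CPM). For *Slc45a2* it was -0.94 in early anagen and 0.052 in the bulb (0.011 to 0.094). That bulb value is smaller than the shift of about 0.12 that TMM scaling made in early anagen, so its sign is uncertain. The difference between the libraries was not tested, and chemistry, age and depth cannot be told apart from condition.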

How the results depend on the processing

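The pigmentation median was -1.22 and stayed below 0 under all 33 alternatives that give it. It ran from -1.30 to -0.82 within the early-anagen library: -1.06 and -1.07 in the lower and upper 50% of cells by UMIs, -1.01 with the top 30%, -1.01 with the share taken after thinning, -1.07 without *Fxyd5* and -1.09 without *Tnfrsf12a* in the rule, -0.99 against all other eligible cells, -0.95 with cells with *Mki67* or *Top2a* included and -0.82 with those alone, -0.99 under 3% mitochondrial UMIs, -0.86 and -0.89 with *Tnfrsf12a* or *Fxyd5* alone and -1.10 with TMM. It was -0.029 in the bulb. Counts of genes moved more than medians. The main counts of 281 higher and 617 lower genes became 446 and 391 with TMM, 171 and 388 against all other eligible cells, 161 and 219 at 50 CPM, 529 and 1569 at 5 CPM, 76 and 170 at 2-fold, 153 and 257 with *Fxyd5* alone, 969 and 1232 in barcodes of 5000 to 10000 UMIs and 44 and 6 in the bulb, and 285 were lower without *Tnfrsf12a*. Another random thinning, added after the data were seen, gave 287 and 663. So were the rules with 1 gene, the limit on keratinocyte UMIs and the removal of 1 barcode. Fewer cells, fewer UMIs or another limit enter several of these by construction, and for the others the cause was not tested.

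Direction turned for cornified genes, which rest on few UMIs outside 1 barcode: *Krtdap* 0.24 and *Sprr1a* 0.10 in the lower 50% by UMIs, *Sbsn* 0.48 with at least 20 *Dct* UMIs and 0.54 with *Tnfrsf12a* alone, *Crct1* 0.32, *Sprr1a* 0.32, *Lor* 0.86 and *Sbsn* 2.25 in cells with *Mki67* or *Top2a*, *Lor* 2.54 and *Sbsn* 0.61 with fewer than 5 keratinocyte UMIs, and *Sprr1a* 0.13 and *Sbsn* 0.22 without the 1 barcode. In the bulb *Mitf* was 0.036, *Id1* 0.28, *Apold1* 0.025, *Nap1l5* 0.32, *Gbp2* -1.59 and *Abl2* -0.024. Of the 15 genes named as higher, 6 fell within 1.5-fold under an early-anagen alternative: *Fn1* 0.21 and *Arhgdib* 0.36 under 3% mitochondrial UMIs, *Arhgdib* 0.46 in cells with *Mki67* or *Top2a*, *Gbp2* 0.27, *Arhgdib* 0.33 and *Fxyd3* 0.46 in barcodes of 5000 to 10000 UMIs, and *Klf5* 0.37 and *Abl2* 0.34 with *Fxyd5* alone. A planned split on *Xist* without Y-linked transcripts was not run, since 0 cells qualified. No paired analysis was possible because each condition had 1 library and no result comes from a test.

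Low genes limit the ratios: *Oca2* and *Id1* had 6 and 4 UMIs in members. Within the early-anagen library their log2 ratios ran from -6.45 to -2.77 and from -5.39 to -1.67, those of *Id2* from -3.61 to -1.47, *Id3* from -3.44 to -1.46 and *Mitf* from -1.95 to -0.59.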
